A study of Mus musculus with 11 samples.

Results

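The Fc receptor genes described here are Fcgr1, Fcgr2b, Fcgr3, Fcgr4, Fcer1g and Fcgrt, which are 6 of the 27998 genes counted in every library. They were taken by name from a list. For each one, the level and the share of cells with at least 1 UMI were read in all 11 libraries, by tissue and by genotype. A UMI, or unique molecular identifier, is a tag that counts each captured RNA molecule once.

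Fc receptors bind the constant part of antibodies and let macs take up or react to targets that antibodies have coated. Fcgr1 (CD64), Fcgr3 and Fcgr4 encode activating receptors for IgG, which signal through the ITAM motif of the FcR gamma chain encoded by Fcer1g, whereas Fcgr2b encodes the inhibitory receptor, which recruits the phosphatase SHIP1 through an ITIM motif. Fcgrt encodes the heavy chain of the neonatal Fc receptor (FcRn), which pairs with beta-2 microglobulin and returns IgG from endosomes instead of letting it be degraded.

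Macs were sorted from the brain (microglia), colon (CMs), liver (Kupffer cells, KCs), lung (alveolar macs, AMs) and spleen (SMs) of C57BL/6 mice of both sexes, and their RNA was counted in single cells with droplet 3′ libraries. Each tissue had 1 library from CRE-negative Zeb2fl/fl mice (WT) and 1 from CRE-positive Zeb2fl/fl mice (Zeb2KO), in which the transcription factor gene Zeb2 is deleted in cells that express the CRE. Total macs were sorted, with no selection for the deletion, and by the study's account the CRE left part of the macs with a copy of Zeb2 in every tissue but the brain. Zeb2KO therefore names the mice a library came from, and in colon, liver, lung and spleen such a library can mix cells with and without Zeb2. An 11th library held KCs of CRE-negative Nr1h3fl/fl mice, a second WT. No library had a repeat within its tissue and genotype, by the methods mice were aged 6 to 8 weeks where nothing else was said, and how many mice each one came from was not stated in the sources used here. By the labels, all 5 Zeb2KO libraries came from the Fcgr1-cre line. The methods differ from them: there the line was Clec4f-cre for KCs and Itgax-cre for AMs, and Fcgr1-cre was used for microglia, CMs and SMs. The Fcgr1-cre line carries its CRE and reporter cassette in the 3′ UTR of Fcgr1 itself, so the driver of the deletion is one of the genes described. CD64, the protein made from Fcgr1, was also part of the sort gate of all 5 tissues. KCs were gated on Clec4F and F4/80 as well, AMs on CD11c, SiglecF and F4/80, microglia on F4/80 and intermediate CD45, and CMs and SMs on F4/80 without Ly6C, Ly6G or SiglecF.

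The 11 libraries held 51712 barcodes, from 3097 to 7703 each. After the filter on cells, 45417 macs remained, from 2830 to 6988 per library, with 8191842 to 43012607 UMIs per library. Levels are given as CPM, the UMIs of a gene per 1000000 UMIs summed over the macs of its library, and their 95% intervals are exact Poisson intervals that cover counting error only. Markers of the labelled mac type were highest in their own WT tissue for 6 of 6 genes in microglia and KCs, for 5 of 6 in CMs and SMs, and for 4 of 6 in AMs. The level of Zeb2 was higher in each Zeb2KO library than in its WT library, at 1747 against 475 CPM in microglia, 476 against 375 CPM in CMs, 778 against 387 CPM in KCs (512 CPM in the Nr1h3fl/fl library), 480 against 312 CPM in AMs and 883 against 728 CPM in SMs. The counted 3′ tags lie outside the floxed part of the gene, so this level checks no label. Clusters held almost only by Zeb2KO cells, here called clusters apart from WT, took 94.4% of Zeb2KO microglia, 89.4% of AMs, 77.5% of SMs, 63.7% of KCs and 22.1% of CMs. With 1 library per group, such a cluster may be the library and not a cell type.

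Fcgr2b, Fcgr4, Fcgr3 and Fcer1g lie on 1 stretch of chromosome 1, in that order. In GRCm38/mm10 (GENCODE M21) they span chr1:170958617-170976547 on the minus strand, chr1:171018920-171029761 on the plus strand, chr1:171051174-171064935 on the minus strand and chr1:171229572-171234365 on the minus strand. Fcgr1 lies at chr3:96282909-96293969 and Fcgrt at chr7:45092990-45103851, both on the minus strand. Among RefSeq promoters on GRCm38.p6, taken from 250 bases before to 50 bases after a start site, all 6 genes were matched. GAGGAA, the core bound by the macrophage factor PU.1, was searched on both strands and found in 3 of the 6, namely Fcgr1, Fcgr3 and Fcgr4, against 28.3% of 32851 promoters. The 3 windows of 28 bases around it are shown because they belong to the 3 activating receptors; each is written 5′ to 3′ along its gene, and the capitals mark the match, which reads GAGGAA on the other strand.
Fcgr1, chr3:96294008-96294035, minus strand: tggcaacttccTTCCTCttttctaatct
Fcgr3, chr1:171059393-171059420, minus strand: agtccatttccTTCCTCtttttgtagtt
Fcgr4, chr1:171018893-171018920, plus strand: aggctatttacTTCCTCtcttctagtca
CACCTG, the E-box bound by ZEB proteins, was in 0 of the 6 promoters and in 20.2% of all promoters. Its shorter form CACCT, which every CACCTG also holds, was in the promoter of Fcgr3 alone of the 6 and in 51.9% of all promoters. The Fcgr3 window is shown with that match in capitals, read on the other strand.
Fcgr3, chr1:171059515-171059542, minus strand: agggtacaagaAGGTGctgcgtgtagaa
A match describes letters and not a bound site, and no match says only that the letters are not in this window.

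Between Zeb2KO and WT macs, the inhibitory receptor gene Fcgr2b was the member with the largest differences. It was higher in Zeb2KO by at least 2-fold in microglia, AMs and SMs, while it was nearly level in CMs and 1.39-fold higher in KCs. Fcgr1 was lower in Zeb2KO microglia, CMs and SMs, by at least 2-fold in microglia. Fcgr3, Fcgr4, Fcer1g and Fcgrt stayed within 2-fold in all 5 tissues. A gene was called when its log2 ratio reached 1 in either direction and the library with more of it held at least 20 CPM. By this rule 2 of the 6 members were called in microglia, 1 higher and 1 lower, where 8.34% of 5922 genes were called, 4.27% higher and 4.07% lower. In AMs 1 member was called higher, against 11.7% of 5811 genes in either direction, 4.37% higher and 7.31% lower. In SMs 1 member was called higher, against 3.25% of 6183 genes, 2.36% higher and 0.89% lower. No member was called in CMs, against 1.56% of 5116 genes (1.08% higher, 0.489% lower), or in KCs, against 4.61% of 5398 genes (3.43% higher, 1.19% lower). Ratios were taken of CPM plus 1, and no test was possible within a tissue. Shifting the scale by TMM moved the median log2 ratio of all genes in AMs from -0.31 to -0.04, so ratios in AMs are read against that median. The median log2 ratio of the 6 members was -0.40 in microglia against -0.09 over all genes, -0.11 against 0.05 in CMs, -0.06 against 0.02 in KCs, 0.58 against -0.31 in AMs and 0.18 against -0.02 in SMs.

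**Figure D1:**
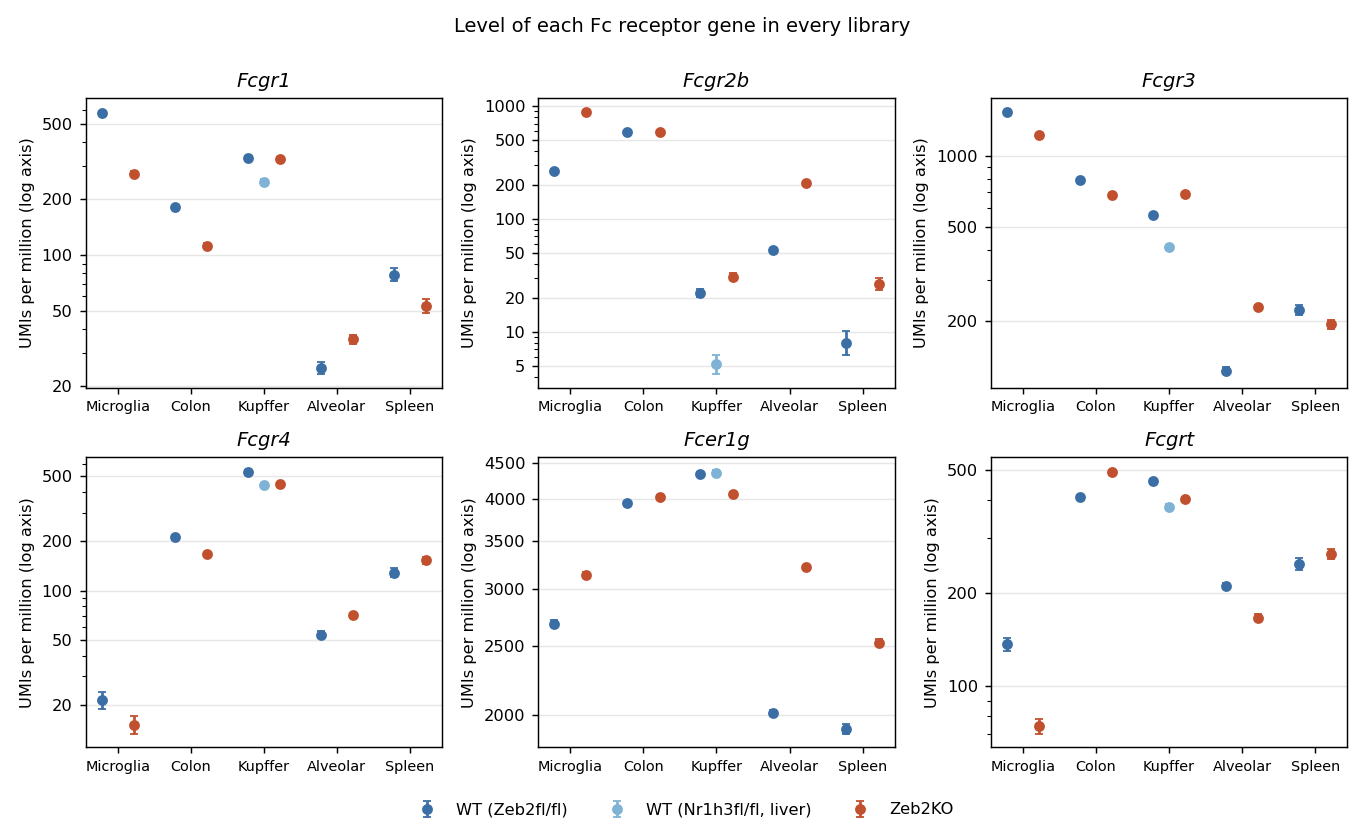
Level of each gene in CPM (log axis, scale differs by panel) in every library, by tissue; points are single libraries and bars are 95% Poisson intervals of counting error. Fcgr2b spans the widest range, from 5.18 in the Nr1h3fl/fl WT KCs to 892 in Zeb2KO microglia, and Fcer1g the narrowest.

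**Figure D2:**
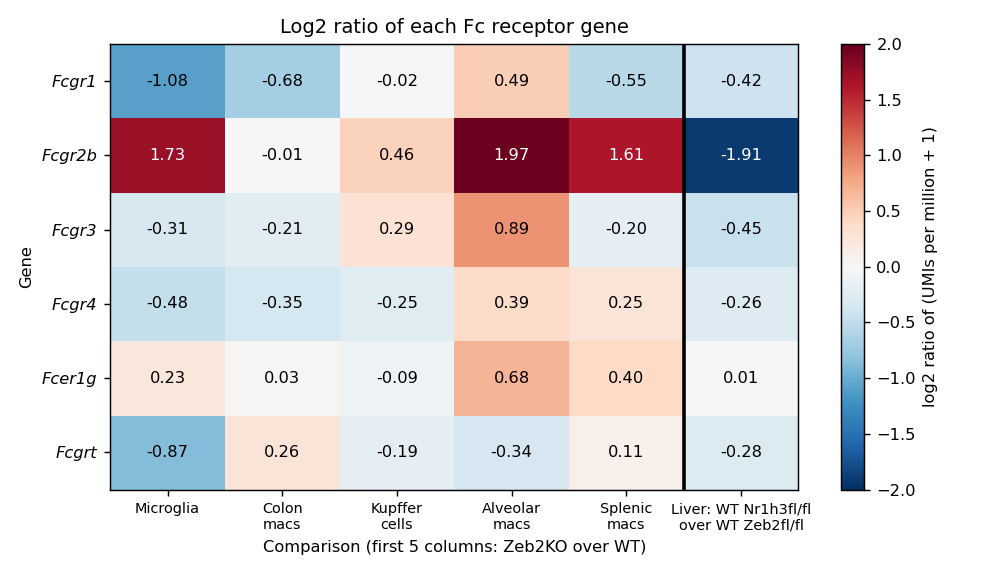
Log2 ratio of each gene (ratio of CPM plus 1), Zeb2KO over WT in 5 tissues and, right of the line, between the 2 WT KC libraries. Red cells are higher in Zeb2KO or in the Nr1h3fl/fl library, and the Fcgr2b row holds the 3 highest values of the first 5 columns, 1.97 in AMs, 1.73 in microglia and 1.61 in SMs.

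Fcgr1, the high-affinity IgG receptor that marks mouse macs, was counted at 577 CPM in WT and 272 CPM in Zeb2KO microglia, 179 and 112 CPM in CMs, 78.5 and 53.3 CPM in SMs, 330 and 325 CPM in KCs, and 24.8 and 35.3 CPM in AMs. It was therefore lower in Zeb2KO in the 3 tissues whose CRE line is Fcgr1-cre by the methods, level in KCs and higher in AMs. The WT level was 2.12-fold (2.04 to 2.20) that of Zeb2KO in microglia, 1.61-fold (1.55 to 1.67) in CMs and 1.47-fold (1.31 to 1.66) in SMs, with 95% intervals that cover counting error only. In AMs the Zeb2KO level was 1.43-fold (1.30 to 1.57) that of WT. The call in microglia sat at the limit, with a log2 ratio of -1.08 that became -0.99 with TMM scaling and -0.98 when the median of genes near in length was taken off.

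The lower Fcgr1 level was also found among cells of Zeb2KO libraries that clustered with WT cells, which may hold macs that kept Zeb2. Siglecf, a gene that the study picked from these libraries to mark the deletion, stood at 0.61 CPM in WT CMs of shared clusters, 1.02 CPM in Zeb2KO CMs of shared clusters and 12.5 CPM in Zeb2KO CMs of clusters apart from WT. In SMs the 3 values were 0.374, 4.25 and 17.5 CPM, and in microglia 30.8, 415 and 408 CPM. Zeb2KO CMs of shared clusters were thus near WT in Siglecf, unlike Zeb2KO microglia of shared clusters, though the gate of CMs and SMs left out cells with SiglecF protein. Ms4a1, which the study also used as such a marker in KCs and CMs and, as CD20 protein, in SMs, differed from Siglecf. In the same order it stood at 0.188, 6.69 and 127 CPM in CMs and 66.5, 184 and 174 CPM in SMs. By Ms4a1, Zeb2KO CMs of shared clusters lay above WT, and Zeb2KO SMs of shared clusters lay near those of clusters apart from WT. Microglia held 0.0, 5.08 and 3.43 CPM of Ms4a1. The shared SM clusters kept one with B cell genes, led by Srpk3, Fcer2a and Pik3c2b, of 201 WT and 125 Zeb2KO cells. The part of B cell RNA in the Ms4a1 levels of SMs was not tested. In microglia Fcgr1 stood at 570.3 CPM in WT cells of shared clusters, at 150.0 CPM in Zeb2KO cells of shared clusters and at 282 CPM in Zeb2KO cells of clusters apart from WT. Of the 180 Zeb2KO cells in shared clusters, 167 lay in the cluster led by Ifitm1, Lgals3 and Gpnmb, which held 61 WT cells and where Fcgr1 stood at 277 CPM in WT and 137 CPM in Zeb2KO. In shared clusters Fcgr1 stood at 115 CPM in Zeb2KO CMs against 179 CPM in WT CMs, and at 48.3 CPM in Zeb2KO SMs against 77.8 CPM in WT SMs. In clusters apart from WT it stood at 100.2 CPM in CMs and 54.5 CPM in SMs, so the sums of both kinds of Zeb2KO cells lay below WT. Single clusters apart from WT did not all do so. A CM cluster of 132 Zeb2KO cells led by Iigp1, Cxcl9 and Serpina3g, genes of the interferon response, held Fcgr1 at 277 CPM. That was above the 179 CPM of all WT CMs but within the 139 to 515 CPM of the WT clusters. The highest of these was a cluster of 52 WT cells led by Ifit2, Ifit1 and Ifit3. The microglia clusters apart from WT with at least 50 cells all lay below 570.3 CPM. Some of them still lay within the 277 to 631 CPM of the WT clusters. These were a cluster of 184 Zeb2KO cells led by Ifit1, at 519 CPM, and one of 991 led by Siglecg, at 312 CPM. Of clusters with at least 50 cells of each genotype, Fcgr1 was lower in Zeb2KO in 9 of 9 in CMs (log2 ratios from -0.90 to -0.35), 4 of 4 in SMs (-0.90 to -0.32) and 1 of 1 in microglia (-1.01), but in 4 of 8 in KCs (-0.65 to 0.13) and 2 of 4 in AMs (-1.67 to 0.27). The -1.67 in AMs rests on few UMIs, at 5.72 CPM in 65 Zeb2KO cells. The cells in Zeb2KO clusters shared with WT were 3007 CMs, 676 SMs and 180 microglia. In microglia, CMs and SMs the deletion of Zeb2 and the changed 3′ end of the Fcgr1 allele come together and cannot be told apart here, since 3′ libraries count that end of the transcript.

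**Figure D3:**
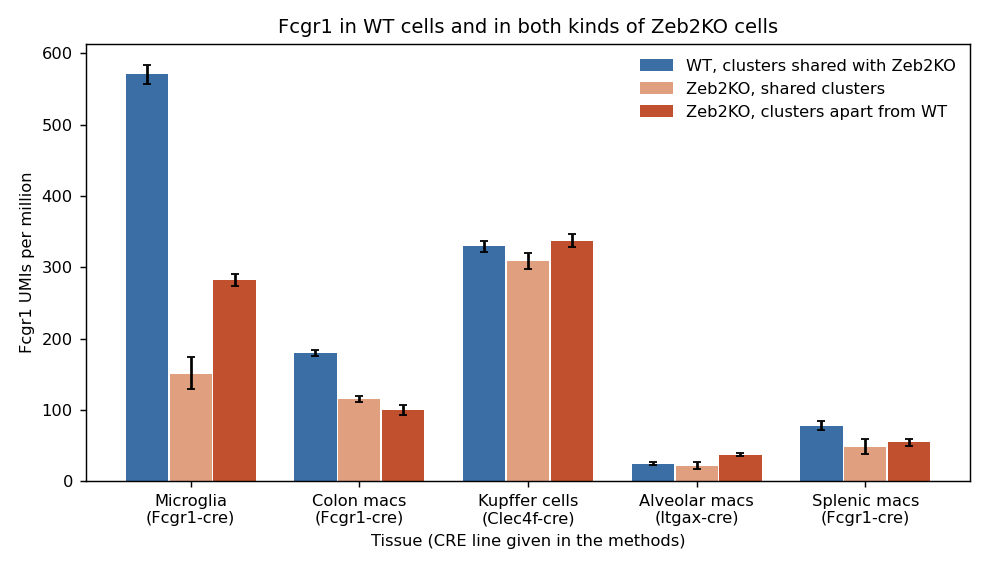
Fcgr1 in CPM in WT cells and in Zeb2KO cells of clusters shared with or apart from WT, by tissue, with 95% Poisson intervals of counting error and the CRE line that the methods name. In microglia, CMs and SMs both Zeb2KO bars lie below the WT bar; in KCs the 3 bars lie between 309 and 337.

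Fcgr3, the activating low-affinity receptor, was counted at 1524 CPM in WT and 1227 CPM in Zeb2KO microglia, 787 and 681 CPM in CMs, 562 and 688 CPM in KCs, 124 and 230 CPM in AMs, and 223 and 195 CPM in SMs. Microglia were highest and AMs lowest among the WT libraries. The largest difference was in AMs, 1.86-fold (1.79 to 1.94) higher in Zeb2KO, and that log2 ratio of 0.89 became 1.17 with TMM scaling, past the 2-fold limit. Fcgr4, an activating receptor for some IgG subclasses, was counted at 21.3 CPM in WT and 15.01 CPM in Zeb2KO microglia, 214 and 167 CPM in CMs, 535 and 451 CPM in KCs, 53.7 and 70.5 CPM in AMs, and 129 and 153 CPM in SMs. It was thus lower in Zeb2KO microglia, CMs and KCs and higher in Zeb2KO AMs and SMs, with log2 ratios from -0.48 to 0.39. Of clusters with at least 50 cells of each genotype, Fcgr4 was lower in Zeb2KO in all 8 KC clusters and the 1 microglia cluster and higher in all 4 SM clusters. It was higher in 3 of the 9 CM clusters and in 2 of the 4 AM clusters, where log2 ratios ran from -0.92 to 1.46.

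Fcgr2b was counted at 268 CPM in WT and 892 CPM in Zeb2KO microglia, 590.5 and 588 CPM in CMs, 22.2 and 30.9 CPM in KCs, 52.6 and 208 CPM in AMs, and 8.06 and 26.7 CPM in SMs. WT levels thus ranged from below the 20 CPM floor of the call in SMs, and just above it in KCs, to the highest one in CMs. The Zeb2KO level was 3.33-fold (3.21 to 3.46) that of WT in microglia, 3.96-fold (3.75 to 4.19) in AMs and 3.32-fold (2.52 to 4.41) in SMs. In CMs the ratio was 0.995 (0.977 to 1.01). SMs passed the floor of 20 CPM through the Zeb2KO library alone, with 66 UMIs in WT and 259 UMIs in Zeb2KO.

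In microglia the higher Fcgr2b level was found in every Zeb2KO cluster. The 5 Zeb2KO clusters of at least 50 cells held 590.5 to 997 CPM and the 3 WT clusters 155 to 275 CPM, so they did not overlap. Besides Fcgr2b, Fcgrt had no overlap, as the lower one in Zeb2KO, so 2 of the 6 members did, against 21.5% of 5922 genes considered, 7.6% higher and 13.9% lower in Zeb2KO. The members had no part in forming the clusters, while other genes did. The 1 cluster with at least 50 cells of each genotype, led by Ifitm1, Lgals3 and Gpnmb, stood at 155 CPM in WT and 590.5 CPM in Zeb2KO. Of the 6 B cell markers measured, which were counted because B cells express Fcgr2b, the summed level in microglia was 57.9 CPM in WT and 23.4 CPM in Zeb2KO, with 2 and 3 of them at 0, and Cd79b made up most of both sums. The 5 monocyte markers summed to 6.405 CPM in WT and 38.6 CPM in Zeb2KO, with 2 and 0 of them at 0, and the 6 neutrophil markers to 196 and 458 CPM, with 4 of them at 0 in both libraries. Single genes carried these sums, Plac8 with 36.0 CPM of the monocyte markers in Zeb2KO and Csf3r with 196 and 362 CPM of the neutrophil markers in WT and Zeb2KO. The 6 markers of CMs summed to 3195 CPM in WT and 9946 CPM in Zeb2KO microglia, of which Cd74 made 6915 CPM in Zeb2KO, with 1 of them at 0 in both, and the 6 erythroid markers to 609 and 39.9 CPM, with 1 and 2 of them at 0. The part of these lists in the result was not tested.

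In CMs, where the whole libraries were level, Fcgr2b was higher in Zeb2KO in 8 of 9 clusters with at least 50 cells of each genotype, by log2 ratios from -0.26 to 0.37. A cluster apart from WT led by Hp, AF067061 and Mmp8, with 18.7% of Zeb2KO CMs, stood lower, at 369 CPM. The 10 WT clusters ranged from 381 to 813 CPM and the 11 Zeb2KO clusters from 317 to 838 CPM.

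Among AMs, clusters held 39.96 to 79.3 CPM of Fcgr2b in WT and 60.6 to 360 CPM in Zeb2KO, so the ranges overlapped. The Zeb2KO cluster led by Auts2, Ceacam10 and Cd177 held 59.2% of the cells and 79.2% of the Fcgr2b UMIs, at 245 CPM. A cluster apart from WT led by Spag11b, Ddah1 and Slc1a3, with 1672 cells or 26.7% of Zeb2KO AMs, stood at 60.6 CPM, within the WT range, and its 62 WT cells at 70.8 CPM. The highest level, 360 CPM, was in a cluster of 222 Zeb2KO cells led by the complement genes C1qa, C1qb and C1qc, and without it the library stood at 201 CPM. The 6 neutrophil markers summed to 14.7 CPM in WT and 274 CPM in Zeb2KO AMs, with 4 and 2 of them at 0, and the 5 monocyte markers to 9.89 and 77.6 CPM, none of them at 0. In Zeb2KO AMs Cxcr2 made 178 CPM of the neutrophil and Ly6c2 55.8 CPM of the monocyte markers. Of the 4 clusters with at least 50 cells of each genotype, Fcgr2b was higher in Zeb2KO in 3, with log2 ratios from -0.22 to 1.38. The part of either list in the result was not tested.

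In SMs the Fcgr2b call rested on 1 cluster. A cluster of 685 Zeb2KO cells led by S100a8, S100a9 and Camp, genes of granulocytes, held 22.8% of the cells and 59.8% of the Fcgr2b UMIs, at 64.8 CPM. Without it SMs stood at 7.95 CPM in WT and 14.2 CPM in Zeb2KO, a log2 ratio of 0.77 that is no longer called; leaving it out was chosen after seeing the data. Of the 4 clusters with at least 50 cells of each genotype, Fcgr2b was higher in Zeb2KO in all 4, with log2 ratios from 0.16 to 3.33. The 3.33 compares 0.0 CPM in 120 WT cells with 9.08 CPM in 328 Zeb2KO cells. A further cluster held 4.13 CPM in WT and 9.06 CPM in 54 Zeb2KO cells. These levels lie below the 20 CPM floor and rest on few UMIs, so their ratios are not set closely. The splenic neutrophil markers summed to 65.6 CPM in WT and 71.3 CPM in Zeb2KO, the monocyte markers to 80.2 and 221 CPM, and the B cell markers to 268 and 173 CPM, with no marker of the 3 lists at 0. The B cell cluster left out of the macs held Fcgr2b at 50.3 CPM in WT and 59.8 CPM in Zeb2KO and took 15.3% and 10.7% of the filtered cells. Clusters that mix mac genes with those of other cell types stayed among the SMs. One led by Srpk3, Fcer2a and Pik3c2b, with further B cell genes among its top 10, held 16 of the 66 WT and 13 of the 259 Zeb2KO UMIs of Fcgr2b, at 22.6 and 25.3 CPM, and another was led by Xcr1, a gene of dendritic cells. With these left out too, which was chosen after seeing the data, the log2 ratio was 1.93. With no cluster left out it was 0.99 and over every barcode 0.98.

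KCs had low Fcgr2b levels in all 3 liver libraries, in the same order as the share of endothelial-like cells in the library. The cluster of endothelial-like cells that was left out held 1268 CPM in the WT and 1213 CPM in the Zeb2KO library, far above KCs, and took 2.40% of filtered WT cells, 7.62% of Zeb2KO cells and 0.706% of Nr1h3fl/fl cells. The KC levels of Fcgr2b in the same order were 22.2, 30.9 and 5.18 CPM. The 6 endothelial markers summed in KCs to 161, 170 and 147 CPM, with none at 0, and their part in the result was not tested. A cluster of 65 WT cells led by Alox15, Prg4 and Slpi held 33.7% of the Fcgr2b UMIs of WT KCs. In 6 of the 8 clusters with at least 50 cells of each genotype Fcgr2b was higher in Zeb2KO, with log2 ratios from -1.59 to 1.47. Some of these clusters held less than 20 CPM in both libraries, so few UMIs set their ratios. One held 10.7 CPM in WT and 6.49 CPM in 55 Zeb2KO cells. Mixed clusters stayed here as well, one led by Cd209a, Nkg7 and Gzma with 6.08% of the WT and 9.58% of the Zeb2KO UMIs, and one led by Cyp26b1, Unc45b and Wwtr1 with 21.2% and 15.05%; with both left out, again chosen after seeing the data, the log2 ratio was 0.49. When no cluster was left out the log2 ratio in KCs was 1.21 and over every barcode 1.18, both past the limit.

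**Figure D4:**
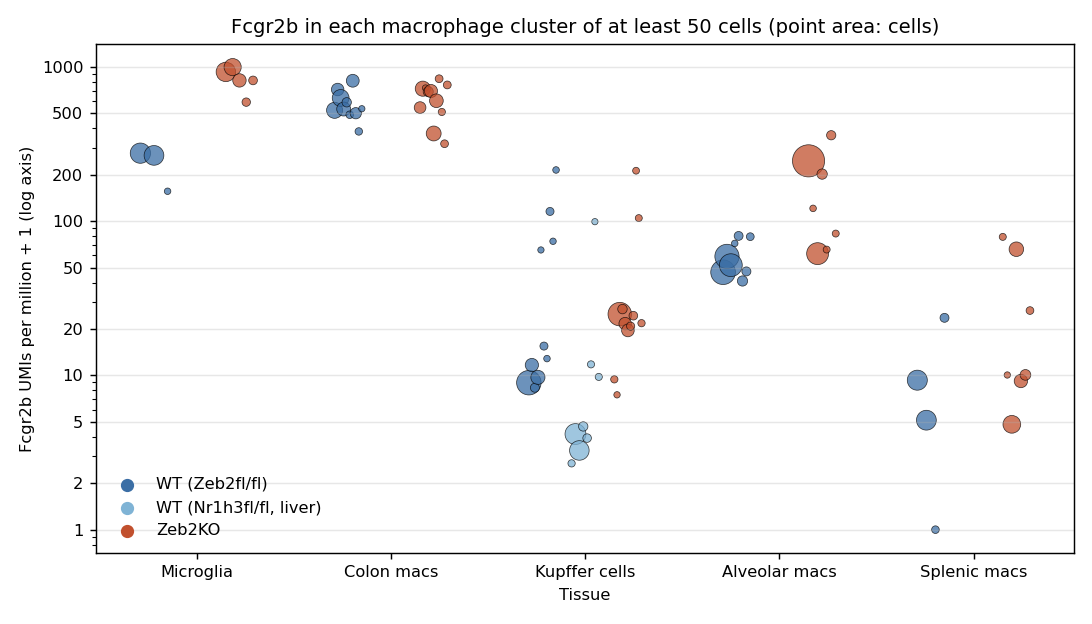
Fcgr2b in CPM plus 1 (log axis) in each mac cluster of at least 50 cells, by tissue and library; a point is 1 cluster in 1 library and its area grows with its cells. Zeb2KO points lie above all WT points in microglia alone, and in the spleen the large Zeb2KO cluster at 64.8 and a small one at 78.1 lie above the others.

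Fcer1g, the shared signalling chain of the activating receptors, was counted at 2683 CPM in WT and 3141 CPM in Zeb2KO microglia, 3955 and 4037 CPM in CMs, 4345 and 4070 CPM in KCs, 2014 and 3217 CPM in AMs, and 1911 and 2524 CPM in SMs. It was higher in Zeb2KO in 4 of 5 tissues, by 1.60-fold (1.58 to 1.61) in AMs and 1.32-fold (1.29 to 1.35) in SMs. In CMs its log2 ratio was 0.03 and turned to -0.05 when the median of genes near in length was taken off. Within clusters Fcer1g was higher in Zeb2KO in 4 of 4 in AMs, 4 of 4 in SMs, 8 of 9 in CMs and the 1 of microglia, and lower in 6 of 8 in KCs, where log2 ratios ran from -0.26 to 0.11.

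Fcgrt was counted at 137 CPM in WT and 74.3 CPM in Zeb2KO microglia, 409 and 490 CPM in CMs, 459 and 402 CPM in KCs, 211 and 166 CPM in AMs, and 248 and 267 CPM in SMs. Microglia were lowest in both genotypes, and the WT level there was 1.84-fold (1.71 to 1.99) that of Zeb2KO. The log2 ratio in AMs of -0.34 shrank to -0.06 with TMM scaling. Its partner B2m, which is also part of class I MHC, was 2.23-fold (2.21 to 2.26) higher in Zeb2KO microglia, at 3569 and 7970 CPM, and 2.35-fold (2.33 to 2.38) higher in Zeb2KO AMs, at 1553 and 3653 CPM. In microglia the chains of FcRn thus differed in opposite directions, while in AMs the ratio of Fcgrt lay near the median of all genes, -0.31. B2m had log2 ratios of 0.16 in CMs, -0.31 in KCs and 0.51 in SMs.

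The share of cells with at least 1 UMI depends on depth, so shares are given as counted and after each cell was thinned to 1500 UMIs. Cells with Fcgr2b made up 63.3% (61.4 to 65.0, exact binomial 95% interval) of WT and 96.0% (95.2 to 96.6) of Zeb2KO microglia, or 32.1% and 71.2% after thinning. In AMs they made up 16.5% and 55.5%, or 7.16% and 22.7% after thinning, which left out 28 WT cells. Cells with Fcgr1 made up 88.6% of WT and 68.6% of Zeb2KO microglia (57.4% and 32.9% thinned) and 72.2% and 54.2% of CMs (22.4% and 14.5% thinned). Thus the shares of both genes moved the same way as their levels in these tissues. As a measure of the background from free RNA, the fibroblast-like cells of the colon held Fcgr1 in 14.7% and 14.4% of cells (3.15% and 2.75% thinned). Their median depths were 8240 and 7248 UMIs against 9232.5 and 8561 in CMs. The same fibroblast-like cells held Fcer1g in 59.7% and 52.6% and Fcgr2b in 14.7% and 12.2% of thinned cells. They thus held RNA of other Fc receptor genes and are no clean background. In brain and lung no cluster of at least 50 cells was left out as another cell type. A lung cluster of 129 WT cells led by Ccl5, Jchain and Gzma, genes of lymphocytes and plasma cells, stayed among the AMs; with a wider removal of mixed clusters, chosen after seeing the data, the log2 ratio of Fcgr2b in AMs was 1.98.

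In SMs cells with Fcgr1 were 17.2% in WT and 14.8% in Zeb2KO as counted and 10.96% and 7.44% after thinning, which left out 835 WT and 541 Zeb2KO cells. Splenic B cells, which should lack Fcgr1, held it in 1.2% and 0.564% of thinned cells, at median depths of 2072 and 3038 UMIs against 2221 and 2729.5 in SMs. Fcgr2b was seen in 1.07% of thinned WT and 3.19% of thinned Zeb2KO SMs. Splenic erythroid-like cells, with median depths of 2605 and 4596 UMIs, held Fcgr2b in 1.80% and 0.424% of thinned cells, from 6 of 173 and 1 of 81 cells as counted. Splenic T cells of the WT library, at a median depth of 2531 UMIs, held it in 0 of 81 cells, which allows a share of up to 3.70% by the floor of 3 counts and 4.45% by the exact interval. With so few cells the background of Fcgr2b in the spleen is not set closely, and the exact interval of the Zeb2KO erythroid-like cells as counted reaches 6.69%, above the 5.70% of Zeb2KO SMs. The same erythroid-like cells held Fcgr1 in 6.73% and 6.92% and Fcer1g in 84.6% and 74.6% of thinned cells. They thus carried RNA of Fc receptor genes and are no clean background. In the liver the B cell-like cells, at median depths of 3452 and 4013 UMIs against 5367 and 5866.5 in KCs, held Fcgr1 in 17.4% and 17.2% of thinned cells, below the 36.2% and 36.6% of WT and Zeb2KO KCs. The thinned share of KCs with Fcgr2b was 2.44% in WT and 3.82% in Zeb2KO. The B cell-like and endothelial-like cells left out of the liver are of types known to express Fcgr2b, and the cluster left out as hepatocytes held 11 cells in all, so no background for it is given.

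Fcgr2b as a percent of the UMIs of Fcgr1, Fcgr2b, Fcgr3 and Fcgr4 together gives the share of the inhibitory receptor, which is compared between libraries only. It was 11.2% (10.8 to 11.6) in WT and 37.1% (36.6 to 37.5) in Zeb2KO microglia, 20.7% and 38.3% in AMs, 33.3% and 38.0% in CMs, 1.84% and 6.24% in SMs, and 1.53% and 2.07% in KCs, with 0.467% in the Nr1h3fl/fl library. The share was higher in Zeb2KO in 5 of 5 tissues, though in KCs by less than the WT libraries differed from each other, and Zeb2KO microglia, AMs and CMs came to lie within 36.6% to 39.0% when their intervals are taken in. For CMs the level of Fcgr2b itself was nearly the same, at 590.5 CPM in WT and 588 CPM in Zeb2KO. Their share was higher because Fcgr1, Fcgr3 and Fcgr4 were lower, with log2 ratios of -0.68, -0.21 and -0.35. Because by the methods Fcgr1 carries the CRE cassette in 3 of the tissues, and by the labels in all 5, the share was also taken without Fcgr1. It was then 14.8% and 41.8% in microglia, 22.9% and 41.0% in AMs, 37.1% and 40.9% in CMs, 2.24% and 7.13% in SMs, and 1.98% and 2.64% in KCs, higher in Zeb2KO in 5 of 5 tissues again. Without the splenic S100a8 cluster the share in SMs was 1.82% in WT and 3.41% (2.80 to 4.12) in Zeb2KO, or 2.21% and 3.87% without Fcgr1.

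**Figure D5:**
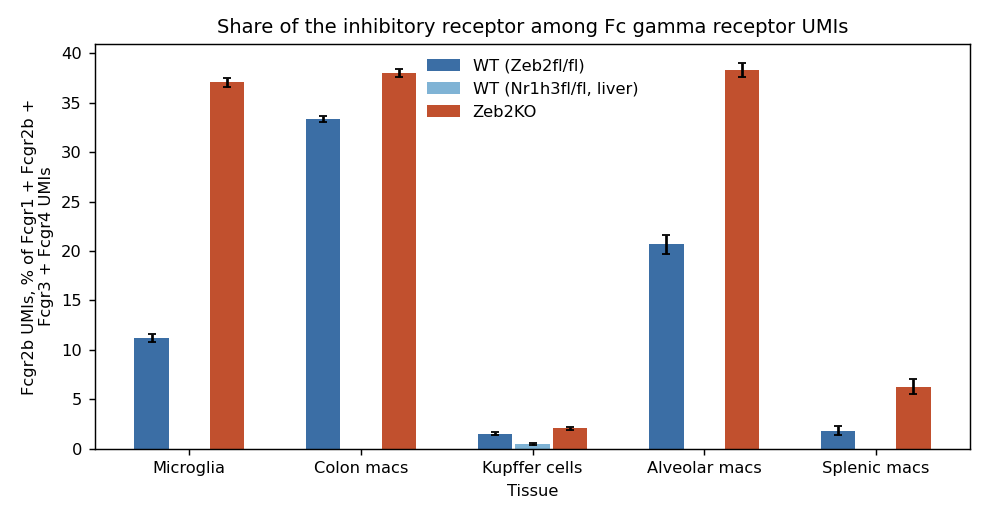
Fcgr2b UMIs as a percent of the UMIs of the 4 Fc gamma receptor genes in every library, by tissue, with exact binomial 95% intervals of counting error. The Zeb2KO bar is above the WT bar in each tissue, and liver and spleen stay below 7%.

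The 2 WT libraries of KCs show how far the members differ with no deletion of Zeb2, though their cell make-up differs too. Fcgr2b was 4.28-fold (3.45 to 5.37) lower in the Nr1h3fl/fl library than in the Zeb2fl/fl library, at 5.18 against 22.2 CPM, and was the 1 member called, where 1.39% of 5555 genes were called, 0.522% higher and 0.864% lower. It passed the floor through the Zeb2fl/fl library alone. Fcgr1 stood at 247 against 330 CPM and Fcgr3 at 411 against 562 CPM, log2 ratios of -0.42 and -0.45. These are larger in size than the log2 ratios of both genes between Zeb2KO and Zeb2fl/fl KCs, -0.02 and 0.29. Against the Nr1h3fl/fl library, the same Zeb2KO KCs were 5.96-fold (4.83 to 7.43) higher in Fcgr2b, again 1 member called, where 8.23% of 5758 genes were called, 4.25% higher and 3.98% lower. The direction of Fcgr1, Fcgr4 and Fcgrt in KCs turned with the choice of WT library, from log2 ratios of -0.02, -0.25 and -0.19 to 0.40, 0.02 and 0.09.

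Across the 5 tissues, with the tissue as a block, edgeR's quasi-likelihood test asked for a shift common to all Zeb2KO libraries. Of 14084 genes tested, 0 (0.0%) had an adjusted p under 0.05 and 1580 had an unadjusted p under 0.05; DESeq2 on the same sums called 358 of 13264 genes (2.7%). Fcgr2b had a common log2 shift of 1.25 (SE 0.38), with an unadjusted p of 0.0137 and a Benjamini-Hochberg adjusted p of 0.322 by edgeR, and was higher in Zeb2KO in 4 of 5 tissues. DESeq2 gave it a shift of 1.24 and an adjusted p of 0.0219, so its call depends on the tool. The other 5 members had shifts between -0.31 (Fcgr1, SE 0.26) and 0.31 (Fcer1g, SE 0.19) and adjusted p-values from 0.581 to 0.968 by edgeR. Without the lung the shift of Fcgr1 was -0.58 (unadjusted p = 0.0142, adjusted p = 0.361 by edgeR) and that of Fcer1g 0.15, and without the brain that of Fcgr1 was -0.15. Leaving out 1 tissue at a time gave Fcgr2b shifts from 0.96 to 1.58. The exact two-sided sign-flip permutation test over the 5 log2 ratios, whose smallest possible p is 0.0625, gave p = 0.125 for Fcgr2b, 0.1875 for Fcgr1 and for Fcer1g, 0.4375 for Fcgrt, 0.6875 for Fcgr4 and 0.8125 for Fcgr3.

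For differences between tissues, each tissue had its WT and Zeb2KO libraries as 2 samples, with 1 effect of genotype for all, and all 6 members differed by edgeR's test of the tissue term, where 80.1% of 14084 genes did. Adjusted p-values were 0.000377 for Fcgr4, 0.00126 for Fcgr2b, 0.00161 for Fcgrt, 0.00177 for Fcgr1, 0.00217 for Fcgr3 and 0.0271 for Fcer1g. Without the colon or the spleen the adjusted p of Fcer1g was 0.062 and 0.117. KCs and AMs were sequenced on another instrument than the 3 other tissues, so between these sets tissue and instrument cannot be told apart. The gates also differed between tissues, apart from the CD64 and F4/80 they shared.

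The activating receptors had different orders of tissues, taken here from the mean log2 CPM of the WT and Zeb2KO library. The steps between neighbours and their adjusted p-values are those of the edgeR fit, which uses TMM and so can differ in size or sign from the steps of the means. Fcgr1 was highest in microglia and KCs, which did not differ beyond their spread (adjusted p = 0.826 by edgeR), followed by CMs, SMs and AMs; of the neighbours in that order CMs and SMs differed, by 1.57 on the log2 scale (adjusted p = 0.0217). Fcgr3 ran from microglia over CMs and KCs to SMs and AMs, and the step from KCs to SMs was the one that passed, at 1.87 (adjusted p = 0.0104); in the fit SMs over AMs came to -0.06 (adjusted p = 0.907), the other way round. Fcgr4 was highest in KCs, 1.23 above CMs (adjusted p = 0.0337), and lowest in microglia, 1.99 below AMs (adjusted p = 0.00235), while SMs lay between CMs and AMs without differing from either (adjusted p = 0.053 for both). Microglia thus held the highest Fcgr3 and the lowest Fcgr4.

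Fcgr2b ran from CMs and microglia (adjusted p = 0.357 by edgeR) over AMs to KCs and SMs (adjusted p = 0.162), and the steps from microglia to AMs and from AMs to KCs were 1.98 and 2.03 on the log2 scale (adjusted p = 0.025 and 0.0337). Its mean log2 levels were 9.20 in CMs and 3.99 in SMs, the fitted difference between them was 5.86 on the log2 scale, and 8 of the 10 pairs of tissues differed, the exceptions being CMs with microglia and KCs with SMs. Of all 14084 genes, 40.8% differed between microglia and CMs, 41.3% between microglia and KCs, 54.6% between microglia and AMs and 51.1% between microglia and SMs. The percents were 18.4 for CMs and KCs, 39.9 for CMs and AMs, 44.2 for CMs and SMs, 38.8 for KCs and AMs, 38.8 for KCs and SMs and 43.8 for AMs and SMs. Fcgr4 and Fcgrt also differed in 8 pairs, Fcgr1 and Fcgr3 in 6 and Fcer1g in 2. Fcgrt was highest in CMs and KCs (adjusted p = 0.626), 1.03 above SMs (adjusted p = 0.0227), and lowest in microglia, 1.03 below AMs (adjusted p = 0.0156). Fcer1g showed no difference between neighbours in its order of KCs, CMs, microglia, AMs and SMs, with adjusted p-values from 0.0801 to 0.965 by edgeR, whose fit turned KCs over CMs (-0.05) and microglia over AMs (-0.02) round.

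Over the 11 libraries, Pearson's r of log2 levels between members was 0.92 for Fcgr4 and Fcgrt and 0.88 for Fcgr1 and Fcgr3, while Fcgr2b and Fcgr4 had -0.58. These are descriptions, since the libraries share tissues and depth. Of 8030 genes compared, those most like each member were Sgf29, Tmem86a and Surf1 for Fcgr1 (r from 0.957 to 0.971), Asl, Gatsl3 and Ccl3 for Fcgr2b (0.943 to 0.957), Bphl, Mydgf and D2Wsu81e for Fcgr3 (0.972 to 0.977), Hacd4, Psmg4 and Dynlt1a for Fcgr4 (0.975 to 0.978), Cxcl16, Psmb2 and Ifi30 for Fcer1g (0.929 to 0.945), and 0610012G03Rik, Ctsc and Pltp for Fcgrt (0.958 to 0.968).

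By the GENCODE gene bounds, Fcgr4 starts 42.4 kb and Fcgr3 88.4 kb from the Fcgr2b start; the RefSeq start used for the Fcgr3 promoter lies inside the GENCODE gene and so nearer to Fcgr2b. Their log2 ratios in microglia, -0.48 and -0.31, had the opposite sign to the 1.73 of Fcgr2b. In AMs, where Fcgr2b had 1.97, those of Fcgr4, Fcgr3 and Fcer1g had the same sign, at 0.39, 0.89 and 0.68, and in SMs those of Fcgr4 and Fcer1g, at 0.25 and 0.40, but not that of Fcgr3, at -0.20. Fcrla, an Fc receptor-like gene of B cells that starts on the other side at -49.0 kb, had 3 UMIs in WT microglia and 245 CPM in Zeb2KO microglia, a ratio of 1008 with a counting interval of 345 to 4890. Fcrlb, at -63.6 kb, stood at 0.162 and 0.827 CPM in WT and Zeb2KO microglia, and the highest level of Fcrla in the other 4 tissues was 17.0 CPM, in WT SMs. Sdhc, a respiratory chain gene 174 kb away between Fcgr3 and Fcer1g, had log2 ratios from -0.46 to 0.10.

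The 5 lists of the pathway hold 60 measured genes. They were chosen with earlier results of these data known, so their shares are descriptions and no test of the pathway. Of those considered, 7 of 36 (19.4%) passed 2-fold in microglia against 8.34% of all genes, 6 of 39 (15.4%) in AMs against 11.7%, 2 of 42 (4.76%) in CMs against 1.56%, 1 of 38 (2.63%) in KCs against 4.61% and 0 of 39 in SMs against 3.25%. Among the ITAM kinases and adaptors, which act below the activating receptors, 1 of 12 considered genes was higher in Zeb2KO microglia, the Src family kinase gene Fgr, at 4.62 and 145 CPM, and 2 of 13 were lower in AMs, Btk and Sh3bp2 (log2 ratios of -1.01 and -1.24). Syk, the kinase that binds the phosphorylated ITAM, had log2 ratios from -0.31 to 0.26 over the 5 tissues. Of the inhibitory phosphatases and adaptors, Dok3 was lower in Zeb2KO microglia (-1.11, 1 of 7 considered) and Dok2 in Zeb2KO AMs (-1.97, 1 of 8). Inpp5d, which encodes the SHIP1 phosphatase recruited by the Fcgr2b product, had log2 ratios from -0.70 in AMs to 0.43 in KCs.

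Among other immunoglobulin receptors and their partners, 2 of 5 considered genes were higher in Zeb2KO microglia, B2m and Fcrla, and 2 were lower, Fcrls (2580 and 932 CPM), an Fc receptor-like gene known as a microglial marker, and Cd79b. Cd79b, part of the B cell receptor, was also lower in Zeb2KO CMs, at 40.9 and 4.53 CPM, and Fcrl1 was higher in Zeb2KO KCs, at 11.4 and 39.7 CPM. The list of receptors that use the FcR gamma chain also named Clec7a and Pirb, which signal through motifs of their own. Of its genes considered, 1 of 6 was higher in Zeb2KO CMs, Clec4e (12.1 and 49.2 CPM). In Zeb2KO AMs 2 of 7 were higher, Clec4d (23.4 and 174 CPM) and Oscar, and in Zeb2KO microglia 1 of 2 was lower, Lilra5 (25.5 and 2.07 CPM). Oscar, which encodes a receptor known from osteoclasts, had 0 UMIs in WT AMs and 38.8 CPM in Zeb2KO AMs, at least 355-fold higher against a floor of 3 UMIs per library. None of the 10 regulators known to set Fc receptor levels, such as Spi1 and Irf8, passed 2-fold in any tissue, with 9 considered in SMs and 10 in the other 4 tissues. With the Nr1h3fl/fl library as WT, 1 of 10, Tgfbr2, was lower in Zeb2KO KCs, where 8.23% of all 5758 genes passed.

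Some counts cannot be given to 1 gene with certainty. Fcgr2b and Fcgr3 share nearly identical exons for their outer domains, and how reads that match both were counted is not given in the sources used here. In the annotation Fcgr2b overlaps the antisense gene Gm38204, Fcgrt the antisense gene Gm45669, Fcgr4 the small RNA gene Gm26110 and Fcgr3 the microRNA gene Mir6546.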

How the data were processed

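The authors processed reads with Cell Ranger on mm10 and deposited raw UMI counts per gene and barcode, the unit used here; KCs and AMs were run on a NextSeq and the other macs on a HiSeq. Members and gene lists were chosen with earlier results of these data known. Cells more than 3 median absolute deviations from their library's median in log UMIs or log genes, or above it in mitochondrial share, were removed (4.66% to 9.22%). Cells of a tissue were clustered without the members, the pathway lists, the study's markers of Zeb2-deleted cells and sex-linked, mitochondrial, ribosomal and immunoglobulin genes (scanpy 1.11.5, leidenalg 0.10.2, 73 clusters in all), and clusters named as other cell types by their markers were left out, 22.5% and 15.1% of cells in WT and Zeb2KO spleen and at most 10.8% elsewhere; clusters mixing mac genes with those of other types stayed. A cluster was apart from WT when its share of Zeb2KO cells was at least 9 times that of WT cells. Scrublet called at most 0.0655% of cells as doublets and had not worked, so doublets were kept. Libraries shared 14 to 76 barcodes, at most 1.45% of the smaller.

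UMIs of macs were summed per library. Tests used edgeR 4.0.16 with TMM and filterByExpr, and DESeq2 1.42.0 as an alternative, in R 4.3.3, with Benjamini-Hochberg adjustment over all genes and a threshold of 0.05; exact permutation tests and intervals used scipy 1.17.1. The p-values measure the spread between tissues' libraries, the only replicates of the genotype contrast. The SE printed with an edgeR shift was worked back from the test, as the size of the shift over the square root of its F. The tissue was the block, since the methods describe littermate controls; the labels give no replicate numbers. On simulated data for the common shift (13939 genes), 97.9% of 97 genes changed by 2 on the log2 scale were recovered, and 0.0655% of unchanged genes were called. The simulation gave all genes the same dispersion and each changed gene the same fold in every tissue. No fold below 2 on the log2 scale was simulated. It therefore does not give the power for smaller shifts or for shifts that differ between tissues, as that of Fcgr2b did. Shares were thinned to 1500 UMIs. All 6 members were named, with list genes that passed 2-fold (at most the 3 largest per list and tissue, with Cd79b in microglia named beyond that after its values were seen), B2m, Syk and Inpp5d always, and the 3 genes most like each member. Alternatives are described in the closing section.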

Additional observations from a re-analysis of the deposited data

How the results depend on the processing

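Of the 30 log2 ratios of a member in a tissue, the sign and the 2-fold call held for 30 with a pseudocount of 0.1 CPM and for 30 with a wider removal of mixed clusters, which was chosen after seeing the data. The sign held for 30 and the call for 28 with TMM and with no cluster removed, for 29 and 28 over every barcode, for 29 and 29 with genes near in length as the centre (also chosen after seeing the data), for 29 and 30 without the 5% of cells with the highest Scrublet scores, and for 28 and 30 with the mean of per-cell CPM. The number of members called became 1 in microglia with TMM and with genes near in length as the centre; 3 in microglia, 1 in CMs and 3 in AMs at 1.5-fold; 2 in AMs with TMM; 1 in KCs with no cluster removed, over every barcode and with the Nr1h3fl/fl library as WT; and 0 in SMs with no cluster removed, over every barcode and without the S100a8 cluster, the last chosen after seeing the data. For these other settings the share of all genes called is not given, apart from 8.23% of 5758 with the Nr1h3fl/fl library as WT. The counts therefore show only how the calls of members move. The edgeR shift called 2 genes with no filter, 8 with the 11th library, 0 to 1 with 1 tissue left out and 358 with DESeq2, which gave Fcgr2b 1.24. Without the tissue as a block, so that the pairing is not used, Fcgr2b had a shift of 0.84 and Fcgr3 one of -0.053, with adjusted p-values of 0.99996 and 0 genes called. With 1 tissue left out, shifts ranged from -0.10 (without lung) to 0.25 for Fcgr3, from -0.21 to 0.06 (without colon; 0.055 without brain, 0.040 without liver) for Fcgr4, from -0.58 (without lung) to -0.15 (without brain) for Fcgr1, from 0.15 (without lung) to 0.42 for Fcer1g and from -0.24 to 0.0064 (without brain) for Fcgrt; the adjusted p of the tissue term of Fcer1g ranged from 0.00913 to 0.117 (0.062 without colon, 0.117 without spleen). The inhibitory share of WT and Zeb2KO was 33.8% and 38.4% in CMs over every barcode and 34.7% and 39.2% with wider removal; 3.92% and 8.69% in KCs with no cluster removed, 4.16% and 9.03% over every barcode, 1.18% and 1.62% with wider removal; 3.95% and 8.01% in SMs with no cluster removed, 3.93% and 7.88% over every barcode, 1.38% and 5.99% with wider removal, and 1.82% and 3.41% without the S100a8 cluster; and 1.2%, 1.21% and 0.292% in the Nr1h3fl/fl library in the same order. The cause of these moves was not tested. The WT level of Fcgr2b in SMs rests on 66 UMIs.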
